A study of Mus musculus with 12 samples.

Results

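The NR4A family comprises 3 nuclear receptor genes, Nr4a1 (Nur77), Nr4a2 (Nurr1) and Nr4a3 (Nor1). Each was taken by its gene symbol in the annotation of the array, and each was represented by 1 probe set, so that the family made up 3 of the 19505 genes measured. Transcript levels were measured on Affymetrix arrays in adrenal medullae dissected from 12 male C57Bl6 mice, 1 array per mouse, as log2 intensities made with RMA. The 4 groups of 3 mice were normally colonized mice given saline (mice 1 to 3), normally colonized mice given insulin (mice 4 to 6), germ-free mice given saline (mice 7 to 9) and germ-free mice given insulin (mice 10 to 12). All mice were fasted for 3 h and killed 90 min after an intraperitoneal injection, which was 2 IU/kg of human insulin or the same volume of saline. Ages, and how the germ-free mice were housed, are not given in the sources used here, and p values measure the spread between these individual mice.

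NR4A proteins are called orphan receptors, and their ligand-binding pocket is filled by the protein's own side chains. Their activity is set mainly by how much of them is made, and their genes belong to the immediate early class that is switched on within minutes by cyclic AMP, calcium and growth factor signals without new protein synthesis. They bind the NBRE motif as monomers, and Nr4a1 and Nr4a2 also pair with the retinoid X receptor. In the adrenal gland they are known as targets of corticotropin in the cortex and of splanchnic nerve and PACAP input in the chromaffin cells of the medulla, and Nr4a2 is known as an activator of the tyrosine hydroxylase gene Th in dopamine neurons. Insulin-induced hypoglycaemia is a standard stimulus of both inputs, and the series asks whether the sympathoadrenal response to it is altered without gut microbes.

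The promoter sequences are shown because the members are textbook targets of the cyclic AMP response element (CRE). The sequences are the 250 bases before the RefSeq transcription start in GRCm38.p6, at chr15:101266596-101266845 on the plus strand for Nr4a1, chr2:57124004-57124253 on the minus strand for Nr4a2 and chr4:48045055-48045304 on the plus strand for Nr4a3. All 3 members were matched by symbol. They are written 5′ to 3′ on the strand of the gene, with every match to the CRE core TGACG on either strand in capitals.
Nr4a1: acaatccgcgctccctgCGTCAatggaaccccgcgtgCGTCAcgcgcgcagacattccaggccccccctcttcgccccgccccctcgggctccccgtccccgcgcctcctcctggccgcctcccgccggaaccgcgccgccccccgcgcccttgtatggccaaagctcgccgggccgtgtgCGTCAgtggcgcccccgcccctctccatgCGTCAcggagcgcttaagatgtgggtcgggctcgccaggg
Nr4a2: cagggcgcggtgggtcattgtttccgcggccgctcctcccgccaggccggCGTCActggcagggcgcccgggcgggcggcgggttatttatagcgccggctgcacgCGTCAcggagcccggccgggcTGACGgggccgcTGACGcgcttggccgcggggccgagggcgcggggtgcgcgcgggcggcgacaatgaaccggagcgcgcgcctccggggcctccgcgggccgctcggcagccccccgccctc
Nr4a3: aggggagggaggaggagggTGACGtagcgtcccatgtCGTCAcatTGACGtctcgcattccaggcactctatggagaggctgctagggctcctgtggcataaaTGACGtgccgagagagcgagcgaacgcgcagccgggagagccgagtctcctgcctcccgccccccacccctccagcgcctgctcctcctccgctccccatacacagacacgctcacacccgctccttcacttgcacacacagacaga

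Each of the 3 windows held 4 CRE cores. In Nr4a1 all 4 were on the strand opposite to the gene, and they began at positions -233, -213, -69 and -40 before the start. In Nr4a2 they began at positions -200 and -144 (other strand) and -123 and -111 (gene strand), counted from the start, and in Nr4a3 at -231, -205 and -147 (gene strand) and -213 (other strand). Of 32841 RefSeq windows of this length, 17.8% held at least 1 core and 0.137% (45 windows, these 3 included) held at least 4. The core contains a CpG, and the windows were rich in G and C, at 74.4% for Nr4a1, 80.0% for Nr4a2 and 63.6% for Nr4a3 against a median of 52.4% over all windows. The full palindrome TGACGTCA (in 1.55% of all windows), the NBRE motif AAAGGTCA (1.34%) and the CArG box (1.47%) had no match in these windows on either strand. The MEF2 consensus, which reads the same on both strands and was found in 2.92% of all windows, had 1 match, in Nr4a2 from position -167 to -158, and it overlapped no CRE core. Of the other immediate early genes with a window, 15 of 21 held at least 1 core and 1 of 21 held at least 3, and of other nuclear receptors 10 of 36 and 1 of 36. These counts are per gene, by its window with the most cores. Counted so, 19.8% of all 27018 genes with a window held at least 1 core and 0.777% at least 3. A match describes letters and was not tested as a binding site.

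**Figure D1:**
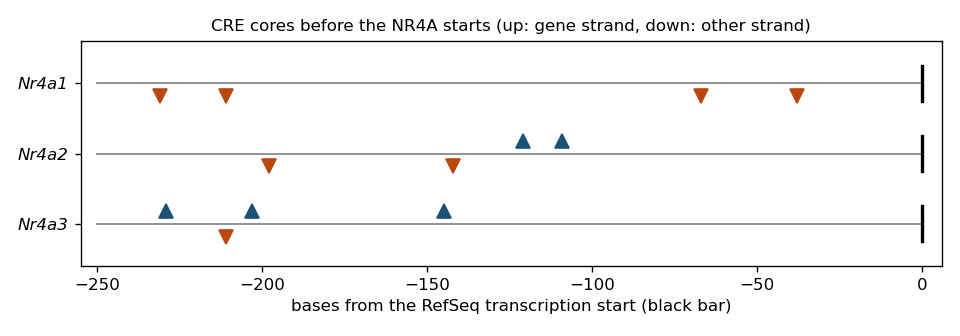
Positions of the CRE core TGACG in the 250 bases before the RefSeq start of each gene; the x axis is the distance from the start in bases, and triangles point up for the strand of the gene and down for the other strand. Each gene has 4 cores, and those of Nr4a1 all lie on the other strand.

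Pairs of arrays within a group had r values of 0.954 to 0.993 over all probe sets (0.987 or more when colonized saline mouse 2 was left out). The mean of the 5222 negative control probe sets was 4.92 to 5.04 on the colonized arrays and 5.46 to 5.67 on the germ-free arrays, so that the background level itself separated the colonization states. All members lay above the 95th percentile of the negative controls on every array, by at least 0.80 for Nr4a2, 2.22 for Nr4a3 and 3.15 for Nr4a1. The dissected tissue carried transcripts of chromaffin and of other cells, and in such bulk samples fewer cells of a type and less RNA per cell cannot be told apart. Chromaffin markers (12 of 14 listed genes measured) averaged 10.27 to 10.86 over the colonized saline arrays, 10.48 to 10.99 over the colonized insulin arrays, 10.28 to 10.45 over the germ-free saline arrays and 9.49 to 10.02 over the germ-free insulin arrays. Adrenal cortex markers (12 of 14 measured) averaged 11.60 to 11.92, 11.89 to 11.94, 12.03 to 12.07 and 12.03 to 12.11 in the same order, and all except Nr0b1 lay above the 95th percentile of the negative controls in every group. Adipocyte markers (8 of 9 measured) averaged 6.99 to 11.15, 6.56 to 9.06, 9.67 to 10.53 and 10.81 to 11.23, and Adipoq, Ucp1, Cidea and Cidec lay below that percentile in the colonized insulin group.

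Nr4a1, the receptor known for its induction by corticotropin in steroid-producing cells, had log2 values of 10.70, 10.44 and 11.31 in colonized saline mice 1 to 3. It had values of 12.32, 11.96 and 11.69 in colonized insulin mice 4 to 6. The germ-free saline mice 7 to 9 had 12.07, 12.17 and 11.79, and the germ-free insulin mice 10 to 12 had 12.32, 12.41 and 12.54. The colonized saline mice were thus the lowest, with no overlap with any other group, and the germ-free saline mice lay among the colonized mice that had received insulin. From low to high, the group means were 10.82 ± 0.45 (SD, n = 3) for colonized saline, 11.99 ± 0.31 for colonized insulin, 12.01 ± 0.20 for germ-free saline and 12.42 ± 0.11 for germ-free insulin, and the middle pair differed by less than either SD.

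Nr4a2, the receptor needed for the development of midbrain dopamine neurons, had values of 8.10, 8.10 and 9.30 in the colonized saline mice and of 11.26, 10.74 and 9.87 in the colonized insulin mice. The germ-free saline mice had 10.05, 10.44 and 9.88, and the germ-free insulin mice had 11.71, 11.83 and 12.11. The colonized saline mice again lay below all others and the germ-free insulin mice above all others. The order of the group means was colonized saline (8.50 ± 0.70), germ-free saline (10.12 ± 0.29), colonized insulin (10.62 ± 0.70) and germ-free insulin (11.89 ± 0.20). The middle pair overlapped, with colonized insulin mouse 6 just below all 3 germ-free saline mice.

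Nr4a3, the remaining receptor, which binds the same DNA motif, had values of 9.43, 11.39 and 10.59 in the colonized saline mice and of 11.43, 11.17 and 11.44 in the colonized insulin mice. The germ-free saline mice had 11.96, 11.76 and 11.63, and the germ-free insulin mice had 12.54, 12.44 and 12.60. The colonized saline mice spread more widely than any other group, and mouse 2 reached the level of the insulin mice. The same mouse had the highest adipocyte marker mean of its group (11.15, against 6.99 for mouse 1 and 10.16 for mouse 3). The liver marker means of mice 1 to 3 had the same order (6.22, 11.02 and 7.81). The chromaffin marker means had the reverse order (10.86, 10.27 and 10.60), as did those of endothelium and macrophages. A relation of Nr4a3 to any of these markers was not tested. In the colonized insulin mice Nr4a3 lay within 11.17 to 11.44, and the adipocyte marker means were 6.56 to 9.06. Group means were 10.47 ± 0.99 and 11.35 ± 0.15 for saline and insulin in colonized mice and 11.78 ± 0.16 and 12.53 ± 0.08 in germ-free mice, and only the colonized pair of groups overlapped.

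**Figure D2:**
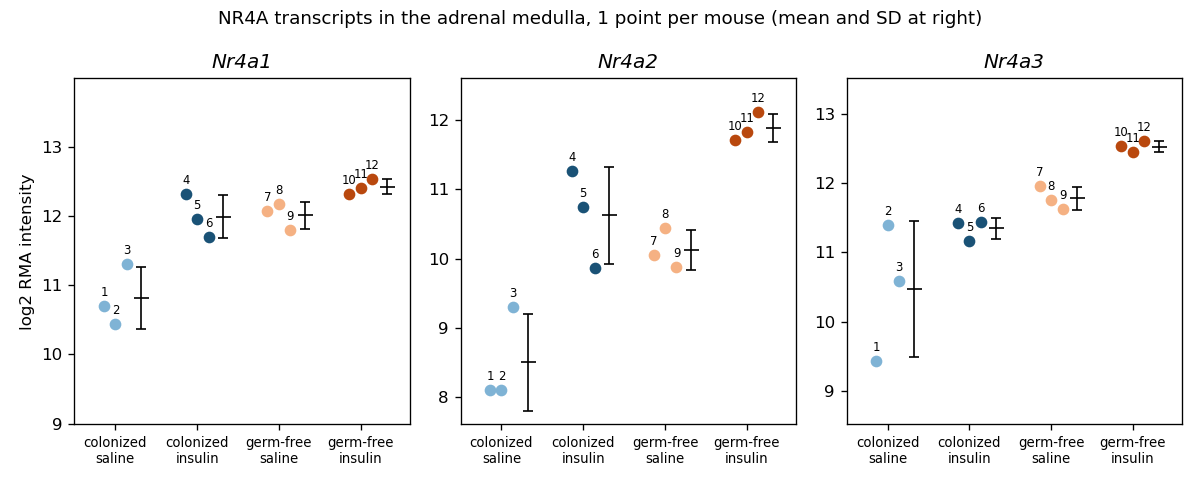
Log2 RMA intensity (y axis, the same span but a different position for each gene) of Nr4a1, Nr4a2 and Nr4a3 in each of the 12 mice, with the mouse number above each point and the group mean ± SD (n = 3) in black. By group mean the colonized saline mice are the lowest (10.82, 8.50 and 10.47) and the germ-free insulin mice the highest (12.42, 11.89 and 12.53).

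The first comparison asked how the family responded to insulin in normally colonized mice. Nr4a2 rose, with a log2 change of 2.12 ± 0.36 (SE, 3 arrays in each group, limma adjusted p = 0.0463), a 4.36-fold higher intensity and the 4th highest change of 19505 genes. Nr4a1 had a change of 1.17 ± 0.21 (2.26-fold) with an adjusted p of 0.0525, just above the threshold of 0.05, and Nr4a3 had a change of 0.88 ± 0.35 (1.83-fold, adjusted p = 0.363). Thus 1 of 3 members was called higher, where 0.112% of all probe sets were. The colonized insulin arrays lay above every colonized saline array for Nr4a1 and Nr4a2, as they did for 7.52% of all genes, and overlapped for Nr4a3 through mouse 2.

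The call of Nr4a2 in colonized mice sat close to the threshold. It was kept without colonized saline mouse 3 or colonized insulin mouse 6 and lost without any one of the other 10 arrays, with changes of 1.81 to 2.53 and adjusted p values of 0.0144 to 0.211 over all 12. With the adrenal cortex marker mean as a covariate the change was 1.52 (adjusted p = 0.429). With the adipocyte marker mean as a covariate it was 2.02 (adjusted p = 0.167), and with that of chromaffin cells 2.03 (adjusted p = 0.0752). The change stayed at 2.12 without a call in the fit of the colonized arrays alone (adjusted p = 0.57), with trend and robust options (adjusted p = 0.095) and with all rows of the table (adjusted p = 0.0665). Nr4a1 was called without colonized saline mouse 3 (1.42, adjusted p = 0.0292) and without colonized insulin mouse 6 (1.32, adjusted p = 0.0406). For Nr4a3, leaving out colonized saline mouse 1 lowered the change to 0.35 and leaving out mouse 2 raised it to 1.34, neither of them called.

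In germ-free mice the same comparison gave a change of 1.77 ± 0.36 for Nr4a2 (SE, 3.40-fold, limma adjusted p = 0.0641), the 10th highest of all genes. Nr4a3 had a change of 0.75 ± 0.35 (1.68-fold, adjusted p = 0.607) and Nr4a1 one of 0.41 ± 0.21 (1.33-fold, adjusted p = 0.669). None of the 3 members was called by limma and 1 of 3, Nr4a2, had an unadjusted p under 0.05, where 0.439% of all probe sets were called in either direction. All 3 germ-free insulin arrays lay above all 3 germ-free saline arrays for each of the 3 genes, which was the case for 9.56% of all genes. Nr4a2 was called when the fit held the germ-free arrays alone (1.77, adjusted p = 0.0022), with array weights (1.72, adjusted p = 0.00707) and without colonized saline mouse 2 or 3 or colonized insulin mouse 4 or 6, whose spread enters the shared error. Nr4a3 was called in the fit of the germ-free arrays alone (adjusted p = 0.0186). With the chromaffin marker mean as a covariate, which was lower in the germ-free insulin arrays, the change of Nr4a3 was -0.10.

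Whether the response of the family to insulin depended on colonization was tested as the difference of both effects. The germ-free effect minus the colonized effect was -0.76 ± 0.30 for Nr4a1 (SE, 95% interval -1.41 to -0.11, limma adjusted p = 0.422), -0.36 ± 0.51 for Nr4a2 (-1.46 to 0.75, adjusted p = 0.856) and -0.13 ± 0.49 for Nr4a3 (-1.20 to 0.94, adjusted p = 0.956). None of the 3 was called and 1 of 3, Nr4a1, had an unadjusted p under 0.05, with 0.0358% of all probe sets called in either direction. These intervals reach from a large loss of response to, for Nr4a2 and Nr4a3, a gain, so they do not show that the responses were alike. The sign for Nr4a2 turned when the marker mean of the cortex (0.19) or of chromaffin cells (0.10) was a covariate, and that for Nr4a3 turned without colonized saline mouse 1 (0.39).

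Averaged over both states, insulin raised Nr4a2 by 1.94 ± 0.25 (SE, limma adjusted p = 0.00768), the 5th highest change of all genes, and Nr4a1 by 0.79 ± 0.15 (adjusted p = 0.0471). Nr4a3 had a mean change of 0.81 ± 0.25 that was not called (adjusted p = 0.24), although its size was close to that of Nr4a1, and its SE was larger. Thus 2 of 3 members were called higher, against 0.255% of all probe sets. Nr4a2 kept its call in each of the 12 fits with 1 array left out and in all 10 other alternatives, with changes of 1.62 to 2.15. Nr4a1 kept it in 3 of the 12 fits with 1 array left out, those without colonized saline mouse 2 or 3 or colonized insulin mouse 6 (0.70 to 0.92 over all 12), and had a change of 0.55 (adjusted p = 0.172) with the adrenal cortex covariate. Nr4a3 was called without colonized saline mouse 2 (1.04, adjusted p = 0.0202).

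**Figure D3:**
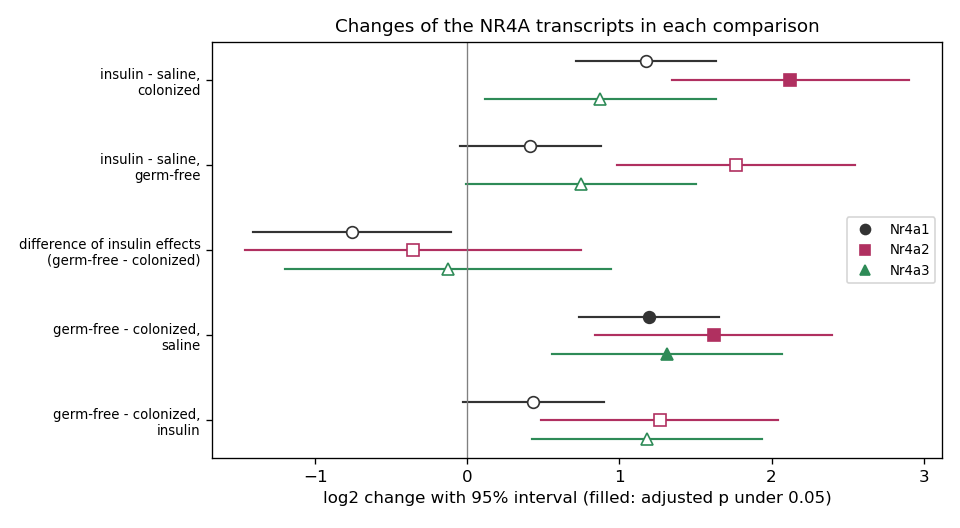
Log2 changes (x axis) with 95% intervals from limma for the 3 genes in 5 comparisons (rows), filled where the adjusted p was under 0.05. All intervals of the insulin effect in colonized mice and of the germ-free minus colonized difference after saline lie above 0, and the difference of the insulin effects is below 0 for each gene with intervals of Nr4a2 and Nr4a3 that cross 0.

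The next comparison asked how germ-free and colonized mice differed without insulin, and here all 3 members were higher in germ-free mice. Nr4a2 was higher by 1.62 ± 0.36 (SE, 3.08-fold, limma adjusted p = 0.0222), Nr4a3 by 1.31 ± 0.35 (2.48-fold, adjusted p = 0.0435) and Nr4a1 by 1.19 ± 0.21 (2.29-fold, adjusted p = 0.00876). These 3 of 3 calls stand beside 2.82% of all probe sets called higher, and beside 10.9% of all genes for which, as for the 3 members, every germ-free saline array lay above every colonized saline array. This comparison shares the colonized saline arrays with the insulin effect in colonized mice, so the low values of those 3 mice enter both. All 3 calls were lost when the fit held the saline arrays alone (adjusted p = 0.0689 for Nr4a1, 0.0737 for Nr4a2 and 0.176 for Nr4a3).

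After insulin the differences were 1.26 ± 0.36 for Nr4a2 (2.40-fold, limma adjusted p = 0.0516), 1.18 ± 0.35 for Nr4a3 (2.27-fold, adjusted p = 0.0587) and 0.43 ± 0.21 for Nr4a1 (1.35-fold, adjusted p = 0.255). None of the 3 was called in this comparison, 2 of 3 had an unadjusted p under 0.05, and 7.77% of all probe sets were called in either direction. Every germ-free insulin array lay above every colonized insulin array for each member, as for 12.0% of all genes. For Nr4a3 every germ-free saline array also lay above every colonized insulin array, as for 11.2% of all genes.

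Several measures moved with colonization beside these differences. The adrenal cortex marker mean was higher on each germ-free array (12.03 to 12.11) than on each colonized array (11.60 to 11.94). With that mean as a covariate the differences after saline were 0.38 for Nr4a1 (adjusted p = 0.558), 0.52 for Nr4a2 (adjusted p = 0.704) and 1.87 for Nr4a3 (adjusted p = 0.217). The covariate separates the colonization states almost as colonization itself does, and the part of cortex tissue in the differences cannot be told apart from colonization in that fit. All 7 intestinal markers were called higher in germ-free mice after saline (median 3.44), beside 6.88% of all genes called in either direction. Their mean was 7.56 to 9.40 on the germ-free saline arrays against 5.13 to 5.25 on the colonized saline arrays, and their part in the NR4A differences was not tested. All 7 had group means below the 95th percentile of the negative controls in the colonized saline group, and Vil1, Cdh17 and Lgals4 also in the germ-free saline group. The negative controls were also higher on the germ-free arrays, while the median over all genes was lower by 0.04 after saline. Under a second quantile normalization and under median centring the 3 differences after saline were 1.20 and 1.27 for Nr4a1, 1.71 and 1.70 for Nr4a2 and 1.32 and 1.39 for Nr4a3, with an adjusted p of 0.056 for Nr4a3 under the former. No member changed direction under either scaling in any comparison. Both scalings used the probe sets with a gene symbol, without the negative controls, and the part of the background level in the differences was not tested.

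The call of Nr4a3 after saline was lost without any one array except colonized saline mouse 2 (adjusted p up to 0.136), and its value was 0.79 without colonized saline mouse 1. Nr4a2 lost its call without colonized saline mouse 1 or germ-free saline mouse 7 or 8 (adjusted p up to 0.0832), and Nr4a1 kept its call in all 12 such fits (1.00 to 1.44). After insulin, the difference of Nr4a3 was -0.17 with the chromaffin covariate and 0.03 with the adipocyte covariate, and both marker means separated the insulin groups without overlap. Nr4a2 and Nr4a3 were called in that comparison when the fit held the insulin arrays alone (adjusted p = 0.0301 and 0.00218). Nr4a2 was also called there without any one of the colonized saline mice or without colonized insulin mouse 4, and Nr4a3 without colonized saline mouse 1 or 2.

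Within groups, Nr4a1 and Nr4a2 varied together from mouse to mouse. The deviations of the 12 mice from their group means correlated at r = 0.943 and rho = 0.958 (exact permutation within groups, two-sided p = 0.000772 for each, the smallest that 1296 permutations can give, and 0.00231 adjusted over 3 pairs). Without colonized saline mice 2 and 3, which lay farthest from the median of Nr4a1, r was 0.941. Colonized saline mouse 3 and colonized insulin mouse 4 were high for both genes, by 0.49 and 0.33 for Nr4a1 and by 0.80 and 0.64 for Nr4a2. Colonized insulin mouse 6 was low for both, by -0.30 and -0.75.

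No such relation of Nr4a3 to the other members was detected in these 12 mice. Its deviations correlated with those of Nr4a1 at r = -0.095 and rho = 0.105 (exact permutation p = 0.954 and 0.841, adjusted 0.954 and 0.975) and with those of Nr4a2 at r = 0.069 and rho = 0.014 (exact permutation p = 0.823 and 0.975, adjusted 0.954 and 0.975). Without the pair of mice farthest from the median of the first gene, r was 0.279 and -0.026. Its largest deviations were in colonized saline mice 1 (-1.04) and 2 (0.92), where Nr4a1 and Nr4a2 were both below their group means. What the mice of a group did not share (the dissected piece, the array, the response of the animal) cannot be told apart here.

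**Figure D4:**
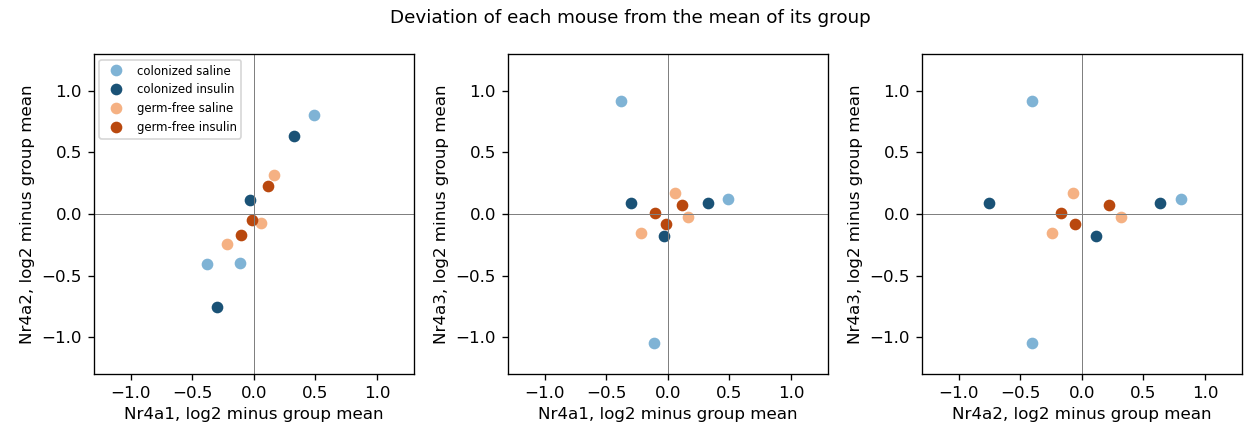
Deviation of each of the 12 mice from its group mean (log2) for each pair of genes, coloured by group. Nr4a1 and Nr4a2 lie along a line (r = 0.943), and Nr4a3 does not follow either, with colonized saline mice 1 and 2 at -1.04 and 0.92.

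The genes whose levels were most like those of the members over the 12 arrays were chosen by Pearson r, with no test. The choice was among 3157 genes with an SD of at least 0.25 and a mean of at least 6.85. That limit lay below the 95th percentile of the negative controls on every array (7.21 to 8.41), so dim genes could enter. For Nr4a1 they were Sik1, a salt-inducible kinase that restrains CREB coactivators (r = 0.969), Slc25a25, a mitochondrial carrier (0.952), the deubiquitinase gene Usp2 (0.949), the dual specificity phosphatase gene Dusp5 (0.947) and Procr, the protein C receptor gene (0.944). For Nr4a2 they were Sik1 (0.973), the polo-like kinase gene Plk3 (0.968), Usp2 (0.952), Procr (0.950) and Csrnp1 (0.941). For Nr4a3 they were Tram2 (0.944), the lactate transporter gene Slc16a1 (0.943), Cpeb2 (0.940), the small GTPase gene Gem (0.936) and Nfil3 (0.930). Nr4a1 and Nr4a2 shared Sik1, Usp2 and Procr, and neither list shared a gene with that of Nr4a3. Once group means were subtracted, r with Sik1 was 0.940 for Nr4a1 and 0.909 for Nr4a2, and r with Tram2 was 0.984 for Nr4a3. For the other named genes it was 0.660 to 0.859 with Nr4a1, 0.607 to 0.829 with Nr4a2 and 0.666 to 0.918 with Nr4a3, and since the genes were chosen on the same arrays these values are a description. Those of Nr4a3 rest largely on colonized saline mice 1 and 2. Nr4a3 deviated from its group mean by -1.04 and 0.92 in these mice and by -0.18 to 0.17 outside the colonized saline group. Among the members themselves r over the 12 arrays was 0.955 for Nr4a1 and Nr4a2, 0.747 for Nr4a1 and Nr4a3 and 0.783 for Nr4a2 and Nr4a3, values that include the group differences.

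Of the genes named from the lists that follow, Camk4, Akr1c18, Pomc, Ucp3, E2f1, Ppara and Hnf4g had group means below the 95th percentile of the negative controls in all 4 groups, so their calls are given without the size of the change. Crtc1, Ncoa3, Ucp1, Pdk4, Nr0b2, Nr1h3, Nr6a1, Pparg and Rara lay below it in 1 or 2 groups. Some further genes below it are named with the lists that hold them.

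Genes that act upstream of NR4A transcription were measured for 24 of 28 listed members, among them the CREB, CRTC, MEF2 and SRF factors, protein kinase A and calcineurin subunits and the receptors for PACAP (Adcyap1r1) and corticotropin (Mc2r). In colonized mice insulin gave no call by limma in this list (3 higher and 1 lower at an unadjusted p under 0.05), the list median was 0.01, and there was none in germ-free mice (1 higher and 2 lower, with a median of -0.02 that was 0.01 under median centring). Of all genes 0.149% and 0.436% were called in these comparisons. The largest values were 0.60 ± 0.26 (SE) for Adcyap1r1 in colonized mice and -0.84 ± 0.26 for the same gene in germ-free mice, both not called. After saline no member was called between germ-free and colonized mice (2 higher and 5 lower at an unadjusted p under 0.05), beside 6.88% of all genes. Mc2r had a difference of 0.40 ± 0.11 (limma adjusted p = 0.0528). After insulin Adcyap1r1 (-1.59, limma adjusted p = 0.00559), the CREB coactivator gene Crtc1 (-0.85) and the calmodulin kinase gene Camk4 were lower in germ-free mice and the protein kinase A subunit gene Prkar2b (0.82) was higher, which makes 4 of 24 called beside 7.75% of all genes. In that comparison 9 of 12 chromaffin markers were called lower and 5 of 8 adipocyte markers higher, and the part of tissue composition in these 4 calls was not tested.

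Partners and coregulators of the NR4A proteins were measured for 13 of 15 listed genes. None was called for insulin in either state or after insulin between states (by limma, 0 at an unadjusted p under 0.05 for insulin in either state, and 2 higher and 3 lower after insulin between states). Of all genes 0.149% (colonized) and 0.436% (germ-free) were called for insulin, and 7.75% after insulin between states. The coactivator gene Ncoa3 was higher in germ-free mice after saline (0.51 ± 0.12, limma adjusted p = 0.032), as 1 of 13 beside 6.88% of all genes called in either direction.

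Of 26 genes listed as NR4A targets in other settings, 25 were measured. After insulin in colonized mice 0 were called higher and 1 lower, the uncoupling protein gene Ucp3 (limma adjusted p = 0.0224), with a list median of 0.00 and 0.149% of all genes called. The 3 members of largest change, the thermogenic gene Ucp1 (-3.72 ± 1.33), the pyruvate dehydrogenase kinase gene Pdk4 (-1.89 ± 0.53) and the progesterone-metabolizing gene Akr1c18, were not called. In germ-free mice Pomc, the corticotropin precursor gene, was called higher (limma adjusted p = 0.00563), 1 of 25 beside 0.436% of all genes. Pomc is also a pituitary marker, and the mean of the 6 pituitary markers was 6.99 to 8.05 on the germ-free insulin arrays and 5.33 to 5.85 on the germ-free saline arrays. The part of pituitary transcripts in this call was not tested. Th, the gene of the rate-limiting enzyme of catecholamine synthesis, had insulin effects of 0.38 (colonized) and -0.23 (germ-free), and the steroid genes Star (0.08 and -0.01), Hsd3b1 (0.04 and 0.04) and Cyp21a1 (0.06 and -0.00) had values near 0, all not called. The group means of Th and these steroid genes were 13.24 to 13.78, close to the highest value on each array (13.78 to 13.91). Whether the top of the scale limited their changes was not tested. After saline, where the transcripts of all 3 receptors were higher in germ-free mice, 0 targets were called higher and 1 lower, the cell cycle factor gene E2f1 (limma adjusted p = 0.0239), beside 6.88% of all genes called, with Th at 0.07 and Star at 0.06. At an unadjusted p under 0.05 by limma, 4 were higher and 3 lower. Of the 25 targets 18 lay above 0, where 44.0% of all genes did, with a median of 0.06 against -0.04. Among these 18, Slc6a3, Cyp17a1, Akr1c18, Crh, G6pc, Fbp1, Fbp2, Ucp3 and Skp2 had group means below the 95th percentile of the negative controls in all 4 groups. The part of the higher background of the germ-free arrays in this count was not tested. Receptor protein and activity were not measured. After insulin between states 6 were called higher and 2 lower, led by Ucp1 (6.84 ± 1.33), Pdk4 (1.99) and Pomc, which makes 8 of 25 called beside 7.75% of all genes. The higher calls other than that of Pomc stand beside the higher adipocyte markers of the germ-free insulin arrays (10.81 to 11.23 against 6.56 to 9.06). Ucp1 is itself one of those markers. The 2 lower calls were those of Slc18a2 (-1.14, limma adjusted p = 0.0137) and E2f1. In the same comparison 9 of 12 chromaffin markers were called lower. The part of tissue composition in the 8 calls was not tested.

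The other nuclear receptors, 40 of 46 listed genes measured, gave a view of the superfamily outside NR4A. In colonized mice insulin gave no call by limma among the 40 (4 higher and 7 lower at an unadjusted p under 0.05), beside 0.149% of all genes. The median was -0.13, against 0.00 over all genes. The lowest values were those of the lipid-sensing receptors Ppara and Pparg (-0.89 ± 0.71 for the latter) and -0.76 ± 0.20 for Nr0b2, a receptor without a DNA-binding domain. In germ-free mice the gut and liver receptor Hnf4g was called lower (limma adjusted p = 0.0136), 1 of 40 beside 0.436% of all genes. The mean of the 7 intestinal markers was 7.56 to 9.40 on the germ-free saline arrays and 5.11 to 5.36 on the germ-free insulin arrays, against 5.13 to 5.25 on the colonized saline arrays, and its part in the calls of Hnf4g was not tested. After saline 3 were called higher in germ-free mice, Hnf4g, the adrenal cortex receptor Nr5a1 (0.72 ± 0.14, limma adjusted p = 0.012) and Nr6a1 (0.53), and 2 lower, Nr1h3 (-0.52) and Rara (-0.48), which makes 5 of 40 called beside 6.88% of all genes. Nr5a1 is one of the cortex markers used above. For the mean insulin effect limma called 0 of 40 (1 higher and 6 lower at an unadjusted p under 0.05), beside 0.41% of all genes.

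All 28 of the other immediate early genes listed were measured. For the mean insulin effect 28 of 28 lay above 0 with a median of 0.56, against 0.01 over all genes, and 9 were called higher, among them Fosb (1.13 ± 0.12, limma adjusted p = 0.0029), Csrnp1 (1.21 ± 0.15) and Sik1 (1.24 ± 0.19). Over all genes 51.9% lay above 0 and 0.41% were called in either direction. In colonized mice 28 of 28 lay above 0 with a median of 0.67 and 3 called higher, and in germ-free mice 25 of 28 with a median of 0.47 and 1 called higher, Fosb, where 0.149% and 0.436% of all genes were called. After saline 25 of 28 were above 0 in germ-free minus colonized mice with a median of 0.42 and 11 called higher, led by Ier3 (1.95 ± 0.26, limma adjusted p = 0.00192), Gem (1.85 ± 0.28), Sik1 (1.56 ± 0.27) and Nfil3 (1.53 ± 0.23), beside 6.88% of all genes called. After insulin 18 of 28 were above 0 between states, with a median of 0.21, 5 called higher and 1 lower (Jund, -0.64), beside 7.75% of all genes called. For the difference of the insulin effects 6 of 28 were above 0, with a median of -0.31 and 0 called by limma (0 higher and 5 lower at an unadjusted p under 0.05), beside 0.0359% of all genes called. The shares of all genes above 0 were 51.0% and 51.7% for insulin in colonized and germ-free mice. They were 44.0% and 44.5% between states after saline and after insulin, and 49.6% for the difference. The group means of Csrnp1 and Nfil3 lay below the 95th percentile of the negative controls in both saline groups, and that of Fosb in the colonized saline group. Those of Maff (called for the mean effect), Arc (called after saline), Egr4 and Npas4 lay below it in all 4 groups. Those of Egr3 (called for the mean effect), Ier5 and Klf4 lay below it in every group except colonized insulin, and those of Fos, Egr2 and Ier2 in both germ-free groups. The direction of the medians was the same under a second quantile normalization and under median centring. Nr4a2 (2.12 and 1.77) thus had a larger insulin change than each of these 28 genes in both states (at most 1.47 in colonized and 1.13 in germ-free mice), a comparison of fitted values that was not tested.

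**Figure D5:**
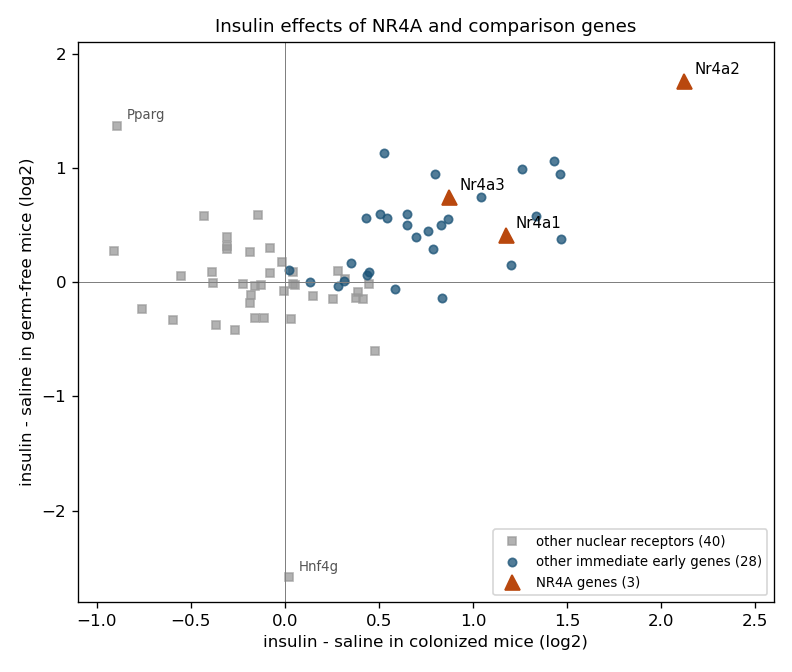
Insulin minus saline in colonized mice (x axis, log2) against the same in germ-free mice (y axis, log2), which share no arrays, for the 3 NR4A genes, 28 other immediate early genes and 40 other nuclear receptors. All 28 other immediate early genes lie right of 0 on the x axis, Nr4a2 lies farthest to the upper right at 2.12 and 1.77. Hnf4g, the lowest point, lay below the 95th percentile of the negative controls in all 4 groups.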

How the data were processed

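Transcript levels of the adrenal medulla of 12 mice were deposited by the authors as log2 values, 1 column per array. RMA and limma are named in the submitters' processing notes with no version. Whether all arrays went through RMA together, and the genome build of the annotation, are not given in the sources used here. Of 28846 rows, 19572 had 1 gene symbol (19505 genes, the probe set of highest mean for each), the 5222 negative controls gave the background level, and the other rows entered only the alternative with all rows. Nothing was transformed further.

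limma 3.58.1 in R 4.3.3 was fitted to all 12 arrays (1 mean per group, eBayes, 8 residual and 4.08 prior degrees of freedom), with Benjamini-Hochberg adjustment over 19572 probe sets and calls at an adjusted p under 0.05, without a filter on dim values. Errors beside changes are standard errors. The number of arrays limits the precision. The members, gene lists and tests were chosen with earlier results of these data known. In each list up to 4 genes of largest change and some, not all, of the further called genes were named. Not every comparison was described for every list. For each member the 5 most alike genes (SD of at least 0.25, mean of at least 6.85) were named. Th, Star, Hsd3b1 and Cyp21a1 were added after their values were seen. Listed genes without a value were not analysed here. Alternatives were other probe set filters, a second quantile normalization, median centring, trend and robust options, array weights, marker covariates, the compared groups alone and leaving out each array. The fit was tested on simulated data.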

Additional observations from a re-analysis of the deposited data

How the results depend on the processing

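Of 408 repeats over 18 results (3 genes in 6 comparisons), 322 kept direction and side of the threshold, 51 lost a call, 30 gained one and 5 turned direction, and for the calls lost or gained the cause was not tested unless named.

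Nr4a2 for insulin in colonized mice lost its call with all rows of the table and with trend and robust options (2.12), the compared groups alone (2.12) and the cortex (1.52), chromaffin (2.03) and adipocyte (2.02) covariates. Nr4a1 gained one without dim probe sets (1.17), where fewer were tested. In germ-free mice Nr4a2 gained a call with array weights (1.72), the cortex covariate (1.71) and the compared groups alone (1.77), and Nr4a3 with the last (0.75), turning with the chromaffin covariate (-0.10). For the difference Nr4a2 turned with the cortex (0.19) and chromaffin (0.10) covariates. For the mean effect Nr4a1 lost its call with all rows and with trend and robust options (0.79) and the cortex covariate (0.55), and Nr4a3 gained one with array weights (0.85) and the adipocyte covariate (0.98).

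Between states after saline, the cortex covariate (0.38, 0.52 and 1.87 for Nr4a1, Nr4a2 and Nr4a3) and the compared groups alone (1.19, 1.62 and 1.31) ended all 3 calls, and Nr4a3 also lost its call with a second quantile normalization (1.32), trend and robust options (1.31) and the chromaffin covariate (1.02). After insulin Nr4a2 gained a call with all rows, without dim probe sets and with the compared groups alone (1.26), with median centring (1.33) and with array weights (1.09). Nr4a3 gained one with the first 3 of these (1.18), median centring (1.25) and array weights (1.15), and turned with the chromaffin covariate (-0.17).

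Leaving out single arrays gave, for Nr4a1, Nr4a2 and Nr4a3, 0.99 to 1.42, 1.81 to 2.53 and 0.35 to 1.34 for insulin in colonized mice, 0.30 to 0.49, 1.64 to 1.93 and 0.67 to 0.83 in germ-free mice, -1.01 to -0.57, -0.76 to -0.04 and -0.59 to 0.39 for the difference, 0.70 to 0.92, 1.79 to 2.15 and 0.55 to 1.04 for the mean, 1.00 to 1.44, 1.42 to 2.02 and 0.79 to 1.77 between states after saline, and 0.28 to 0.60, 0.89 to 1.58 and 1.09 to 1.23 after insulin. Counts of called probe sets ranged over all alternatives from 0 to 71 (30 in the fit reported) for insulin in colonized and from 7 to 545 (86) in germ-free mice, 0 to 149 (7) for the difference, 27 to 252 (82) for the mean, 0 to 3832 (1351) between states after saline and 1 to 3727 (1521) after insulin. The lowest counts after saline and after insulin came with the cortex and the chromaffin covariate, and the highest with all rows and with array weights. No paired analysis was possible because the mice carry numbers that no 2 groups share.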
